A study of Mus musculus with 6 samples.

Results

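The genes examined are 42 enzymes, transporters and regulators of central carbon metabolism, chosen by name from the 23951 rows of the deposited gene table. They fall into 21 genes of glycolysis and lactate handling, 5 of the pentose phosphate pathway, and 16 of pyruvate dehydrogenase and the tricarboxylic acid (TCA) cycle. All 42 names were found, Eno1 and Pkm under their own symbols, and 40 reached a mean of 1 FPKM or more across the 6 libraries, the filter for testing. Eno2, the neuronal enolase, and Slc16a3, a lactate exporter, were below it. FPKM is the number of fragments scaled to transcript length and library size, so it measures a gene's share of the RNA and can be compared between genes per unit of length.

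RNA was sequenced from CD8+ T cells of mouse spleen, sorted as GFP+ TCRbeta+ cells with high CD62L and low to medium CD44, the surface state of naive cells. After sorting, the cells spent 72 h in IL-7 plus IL-15, which maintain T cells. All mice carried hCD2-Cre, a Cre recombinase driven by human CD2 regulatory elements that acts in the T lineage, and Rosa26-lsl-GFP, a reporter that turns on where Cre has acted. The 3 wild-type libraries (WT) had intact Tcf1 and Lef1 genes, and the 3 Tcf1/Lef1-deficient libraries (DKO) came from mice with both genes floxed. Tcf1, encoded by Tcf7, and Lef1 are related DNA-binding factors of T cells. The labels give neither the age of the mice nor whether libraries of 1 group had different animals or cultures as their source, and p-values therefore reflect library spread that may be technical. Libraries are called 0, 1 and 2 after their columns. Per-library values at 0 h were not used here, and for those comparisons the authors' deposited fold changes and q-values are given.

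Glycolysis splits glucose into pyruvate. Its first steps spend ATP, its later steps return ATP and NADH, and lactate dehydrogenase then turns pyruvate into lactate and restores NAD+. The pentose phosphate pathway branches from glucose 6-phosphate and makes NADPH and ribose. Pyruvate that enters mitochondria is oxidised by pyruvate dehydrogenase and the TCA cycle. Resting T cells rely mainly on mitochondrial oxidation, and activated T cells raise glycolysis.

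In the cultured cells, 6 glycolytic genes were lower in DKO than in WT by limma on log2(FPKM + 1), and none of the 3 pathways had a gene called higher. The 6 were the phosphofructokinase Pfkp, phosphoglycerate kinase Pgk1, phosphoglycerate mutase Pgam1, enolase Eno1, lactate dehydrogenase Ldha and the lactate transporter Slc16a1. They stood 1.45-fold to 1.71-fold higher in WT than in DKO by mean FPKM. Of all 10723 genes tested, 6.36% were called lower and 4.31% higher. The count of genes called lower among the 40 members tested was 6, and the count called higher was 0. At an unadjusted limma p under 0.05, 16 of the 40 members were lower and 2 higher, beside 13.6% and 12.6% of all genes tested. By the q-value in the authors' deposited table, 9 of the 42 genes were lower and 0 higher, beside 9.87% and 6.46% of all genes with a p below 1. The median log2 fold change of the 40 members was -0.18, beside 0.01 over all genes tested.

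The direction was not shared along the whole route. Of 19 glycolytic genes tested, 13 had a negative and 6 a positive log2 fold change, with a median of -0.35. The 11 genes of the preparatory steps, up to triose phosphate, had a median of -0.09 with 1 call, and the 5 tested genes of the later, ATP-yielding steps had a median of -0.56 with 3 calls. In pyruvate dehydrogenase and the TCA cycle all 16 genes had a negative value, with a median of -0.13 and no call, although Pdha1, Pdhb, Dlat, Ogdh and Dlst turned positive when the libraries were scaled without ribosomal protein and small RNA rows, and Pdha1 under quantile normalization. The 5 pentose phosphate genes had a median of -0.13 and no call. All DKO libraries lay below all WT libraries in 22 members and above them in 3, beside 17.1% and 17.0% of all genes tested.

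**Figure D1:**
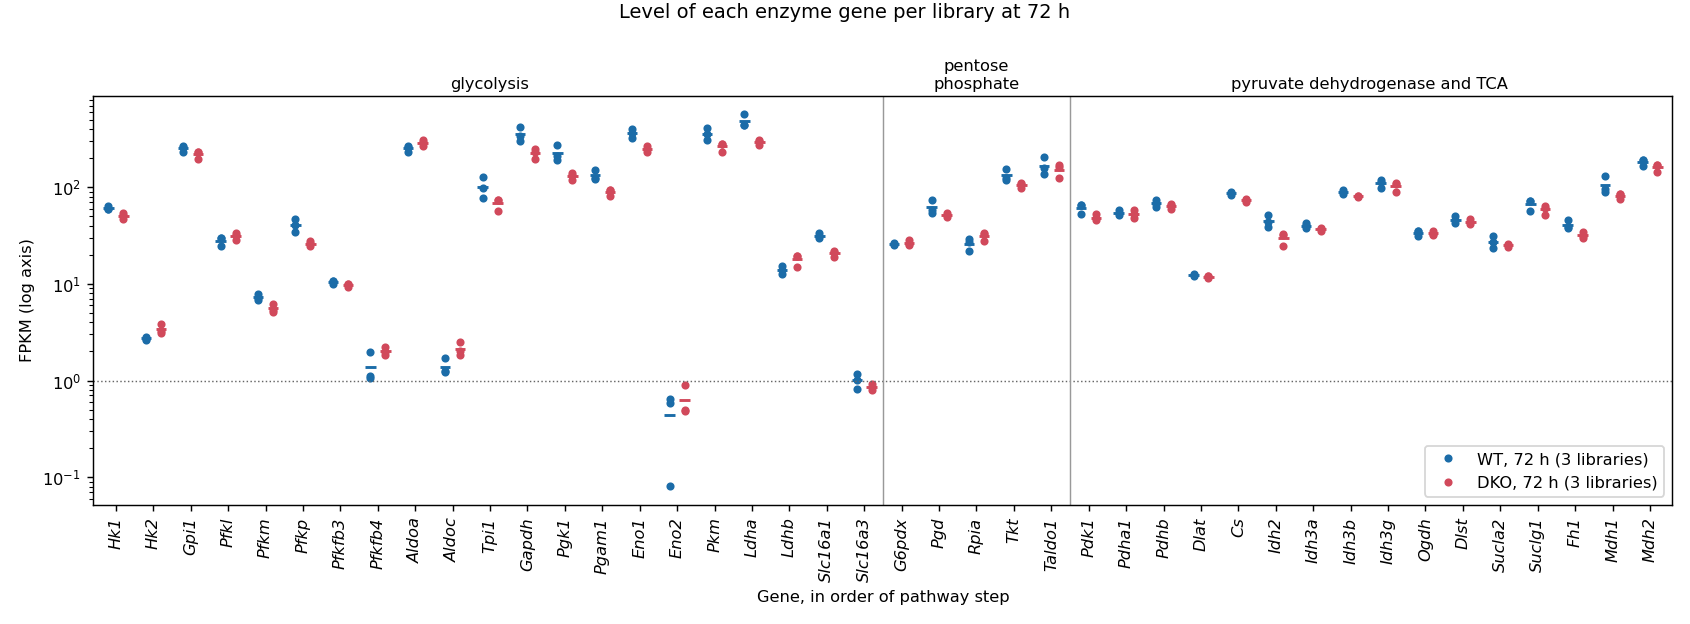
FPKM on a log axis of the 42 genes in order of pathway step, with points for the 3 WT and 3 DKO libraries at 72 h, short lines for group means and a dotted line at 1 FPKM. From Gapdh to Ldha the WT points lie above the DKO points except for Eno2, while Aldoa, Aldoc and Hk2 show the opposite order.

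The libraries can be described briefly. Between 10473 and 10551 genes reached 1 FPKM in a library, and steps between low FPKM values gave relative depths of 1.0 to 1.231. Absolute depth is unknown. Tcf7 was at 532 to 564 FPKM for WT and 269.6 to 288 FPKM for DKO, and Lef1 was 105 to 157 and 48.5 to 52.2 FPKM. Both targeted genes were lower, with a log2 fold change of -0.98 for Tcf7 (limma adjusted p = 0.0041) and of -1.33 for Lef1 (limma adjusted p = 0.00662). These values are per gene and would count reads from any exon that was not deleted. The source of the reads that remained in DKO was not tested. WT library 1 was the highest WT library in 25 of the 40 members tested (62.5%, beside 40.1% of all genes), and DKO library 2 was the lowest DKO library in 31 (77.5%, beside 43.4%). Of 7 T cell markers none was called by limma, 1 had an unadjusted p under 0.05, and their summed FPKM was 3018 to 3574 for WT and 3125 to 3564 for DKO. Cd8a was at 551 to 665.5 FPKM. B cell markers summed to 13.4 to 21.8 FPKM for WT and 17.96 to 27.02 FPKM for DKO, nearly all of it Cd79b, with Ms4a1 and Pax5 at 0 in all 6 libraries. Myeloid markers summed to 72.6 to 102.9 and 67.8 to 116.2 FPKM, mostly Cst3. Erythroid markers stayed under 1 FPKM in sum. Cd4 was at most 0.0735 FPKM for WT and 0.389 to 1.904 FPKM for DKO. Of the 4 NK cell markers, Eomes, a factor that CD8+ T cells also use, was lower in DKO (log2 fold change -2.75, limma adjusted p = 0.0181), and the list summed to 42.2 to 90.5 FPKM for WT and 4.197 to 12.4 FPKM for DKO, while Ncr1, Klrb1c and Klra8 were under 1 FPKM in every library. Whether any of these differences had a part in the enzyme results was not tested. In bulk RNA, fewer cells of a type and less RNA per cell cannot be told apart.

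The sequences just before the start sites of 5 of the 6 genes called lower are printed because these genes carry the result for glycolysis and lactate handling. The 6 genes have 9 RefSeq windows, and the 6 windows that overlap no GENCODE M21 exon of their gene are shown. The single Pfkp window and the other 2 Eno1 windows overlap such an exon and are not printed. Each sequence is the 250 bases upstream of a RefSeq transcript start on GRCm38.p6, plus strand, and reads 5′ to 3′. Capitals mark ACGTG or GCGTG on either strand, the core letters of the hypoxia response element that HIF factors bind. CACGTG, the E-box that Myc-family factors bind, contains ACGTG and is therefore also in capitals.
Pgk1, chrX:106186850-106187099: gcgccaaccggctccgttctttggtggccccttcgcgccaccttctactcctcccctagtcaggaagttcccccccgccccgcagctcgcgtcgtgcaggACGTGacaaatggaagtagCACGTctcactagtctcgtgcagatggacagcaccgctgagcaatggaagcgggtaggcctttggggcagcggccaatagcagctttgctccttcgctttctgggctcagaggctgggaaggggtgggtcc
Pgam1, chr19:41911621-41911870: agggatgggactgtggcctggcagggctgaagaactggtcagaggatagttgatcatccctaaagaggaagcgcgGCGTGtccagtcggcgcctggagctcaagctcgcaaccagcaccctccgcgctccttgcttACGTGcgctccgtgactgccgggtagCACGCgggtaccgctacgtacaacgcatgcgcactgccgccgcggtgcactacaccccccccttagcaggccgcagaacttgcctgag
Eno1, chr4:150236458-150236707: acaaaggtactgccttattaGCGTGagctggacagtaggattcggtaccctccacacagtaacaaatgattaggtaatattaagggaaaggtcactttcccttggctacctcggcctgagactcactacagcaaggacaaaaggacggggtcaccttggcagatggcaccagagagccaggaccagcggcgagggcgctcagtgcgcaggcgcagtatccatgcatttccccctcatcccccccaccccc
Ldha, first window, chr7:46845554-46845803: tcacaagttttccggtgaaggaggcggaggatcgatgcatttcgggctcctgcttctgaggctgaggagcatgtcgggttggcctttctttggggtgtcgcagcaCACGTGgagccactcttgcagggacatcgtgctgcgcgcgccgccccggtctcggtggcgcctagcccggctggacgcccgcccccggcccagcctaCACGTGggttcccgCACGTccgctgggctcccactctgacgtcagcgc
Ldha, second window, chr7:46846832-46847081: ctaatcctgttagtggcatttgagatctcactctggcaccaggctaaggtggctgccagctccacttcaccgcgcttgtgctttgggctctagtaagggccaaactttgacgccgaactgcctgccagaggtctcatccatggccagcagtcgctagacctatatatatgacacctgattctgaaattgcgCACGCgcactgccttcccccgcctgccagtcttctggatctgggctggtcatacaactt
Slc16a1, chr3:104638414-104638663: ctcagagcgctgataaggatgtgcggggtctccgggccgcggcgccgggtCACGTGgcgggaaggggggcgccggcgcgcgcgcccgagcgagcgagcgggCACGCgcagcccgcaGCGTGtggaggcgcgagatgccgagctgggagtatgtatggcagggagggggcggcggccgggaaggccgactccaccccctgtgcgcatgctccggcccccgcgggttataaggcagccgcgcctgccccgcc

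Both Ldha windows lie in introns of a longer Ldha transcript of GENCODE M21. ACGTG was present in windows of 4 of the 6 genes, Pgk1, Pgam1, Slc16a1 and Ldha, the last in its first window only. Pfkp and Eno1 had 0 matches to ACGTG in any window and matched GCGTG instead, and so did the second Ldha window. RefSeq windows were found for 41 of the 42 genes, 60 windows in all since several genes have more than 1 start, some of them overlapping. ACGTG or GCGTG was present in 46 of these 60 windows (76.7%), beside 38.6% of all 32851 promoter windows of the same length. Counted by gene, with a match in any window, 33 of the 41 member genes held ACGTG or GCGTG. All 6 genes called lower were among them. No share by gene was taken over all genes, and a gene with several windows has more chances of a match. The counts by gene in this paragraph therefore have no reference to be set against. ACGTG was in 14 of the 41 genes. ACGTG alone was in 36.7% of member windows and 16.6% of all windows, GCGTG in 56.7% and 28.2%, and CACGTG in 11.7% and 6.02%. CTTTGA, the core letters of the site that Tcf1 and Lef1 bind, searched on both strands, was in 10 of the 60 windows (16.7%), beside 13.8% of all windows. By gene, CTTTGA was in 10 of the 41 member genes and in 2 of the 6 called lower, Pfkp and Ldha. The median GC content was 60.0% in the member windows and 52.4% in all windows, and ACGTG and GCGTG each hold a CG pair. The part of base composition in these shares was not tested, and no binding was measured in these files.

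In the preparatory steps, hexokinases trap glucose in the cell as glucose 6-phosphate. Hk1, the main hexokinase here, stood at 60.3, 64.6 and 59.5 FPKM across WT libraries, against 47.3, 54.4 and 51.3 FPKM across DKO libraries. All DKO values were below all WT values, and the result was a limma log2 fold change of -0.27 (SE 0.0816, adjusted p = 0.104), which missed the threshold. Hk2, the inducible isoform, stood at 2.83, 2.63 and 2.72 FPKM across WT libraries, against 3.83, 3.23 and 3.08 FPKM across DKO libraries. Its DKO libraries were all above the WT libraries by a small margin, and the result was a limma log2 fold change of 0.23 (SE 0.102, adjusted p = 0.223). Gpi1, glucose 6-phosphate isomerase, was at 254 ± 21.1 FPKM for WT against 221 ± 21.2 FPKM for DKO (SD, n = 3), with groups that overlapped.

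Phosphofructokinase commits sugar to glycolysis, and the log2 differences of its 3 isoforms did not share 1 sign. Pfkp, the platelet-type isoform, stood at 40.4, 46.7 and 34.4 FPKM across WT libraries, against 24.6, 27.5 and 26.3 FPKM across DKO libraries. The highest DKO library was below the lowest WT library. Pfkp was called lower in DKO, with a limma log2 fold change of -0.60 (SE 0.122, adjusted p = 0.0336). Pfkl, the liver-type isoform, stood at 24.6, 29.6 and 29.6 FPKM across WT libraries, against 33.9, 32 and 28.3 FPKM across DKO libraries, with overlapping groups and a limma log2 fold change of 0.16 (SE 0.108, adjusted p = 0.387). Pfkm, the muscle-type isoform, was at 7.35 ± 0.524 FPKM for WT against 5.57 ± 0.614 FPKM for DKO (SD, n = 3), and its result was a limma log2 fold change of -0.35 (SE 0.0978, adjusted p = 0.0838). In WT, Pfkp made up 53.3% ± 4.75 of the summed phosphofructokinase FPKM and Pfkl 36.9% ± 3.695 (SD, n = 3). In DKO the order was the other way round, with Pfkp at 41.5% ± 3.16 and Pfkl at 49.7% ± 2.49, and neither share overlapped between the groups. These shares are a description and were given no test.

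Pfkfb enzymes set the level of fructose 2,6-bisphosphate, an activator of phosphofructokinase. Pfkfb3 stood at 10.1, 10.6 and 10.8 FPKM across WT libraries, against 10.05, 10.02 and 9.31 FPKM across DKO libraries. DKO was lower in every library, but the closest libraries nearly met, and the result was a limma log2 fold change of -0.09 (SE 0.0659, adjusted p = 0.422). Pfkfb4 was low, at 1.39 ± 0.518 FPKM for WT against 1.999 ± 0.209 FPKM for DKO (SD, n = 3), with overlapping groups. Pfkfb2, which is not among the 42 genes, was the second most abundant of the family, with 24.2% to 32.7% of the family's FPKM in WT and 27.4% to 37.6% in DKO.

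Aldolase splits fructose 1,6-bisphosphate into the triose phosphates, and the difference of its main gene had the opposite sign to those of the steps that follow it. Aldoa stood at 233, 265 and 259 FPKM across WT libraries, against 309, 293 and 269 FPKM across DKO libraries. All DKO libraries lay above all WT libraries, the result was a limma log2 fold change of 0.20 (SE 0.103, adjusted p = 0.279), and no call was made. Aldoc, a minor isoform with under 1% of aldolase FPKM, stood at 1.25, 1.696 and 1.22 FPKM across WT libraries, against 2.503, 1.83 and 2.03 FPKM across DKO libraries. Its DKO values were also all higher, with a limma log2 fold change of 0.38 (SE 0.146, adjusted p = 0.167). Triose phosphate isomerase, Tpi1, stood at 78.3, 128 and 98.1 FPKM across WT libraries, against 74.2, 73.8 and 57.4 FPKM across DKO libraries. Its DKO libraries were all lower, but the WT libraries spread widely, and the result was a limma log2 fold change of -0.54 (SE 0.202, adjusted p = 0.1598). The authors' deposited table gives a q of 0.00175 for Tpi1, under 0.05. The ratio of Aldoa to Gapdh FPKM was 0.777, 0.632 and 0.772 in the WT libraries and 1.32, 1.19 and 1.36 in the DKO libraries, so that Gapdh was the higher of the pair in WT and Aldoa in DKO.

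In the payoff steps, all 5 tested genes had DKO libraries entirely below the WT libraries, and 3 passed the threshold. Gapdh, which makes NADH, stood at 299, 420.4 and 335 FPKM across WT libraries, against 234, 247 and 198 FPKM across DKO libraries. The groups were well apart in mean, and the gene was just outside the threshold, with a limma log2 fold change of -0.63 (SE 0.162, adjusted p = 0.0661). The authors' deposited table gives it a q of 0.000643.

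Pgk1, on chromosome X at 106187100 to 106203699 (plus strand, GENCODE M21 on GRCm38, as for the other positions), makes the first ATP of the route. It stood at 190.2, 274 and 208 FPKM across WT libraries, against 135, 139.8 and 118 FPKM across DKO libraries. WT library 1 was well above the other 2 WT libraries, and the DKO libraries were close together and below them all. Pgk1 was lower in DKO with the largest log2 difference of the 40 members, a limma log2 fold change of -0.76 (SE 0.159, adjusted p = 0.0367).

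Pgam1 (chromosome 19, 41911923 to 41918660, plus strand) moves the phosphate group of phosphoglycerate. Its values were 122, 152 and 124 FPKM across WT libraries, against 93.2, 94.1 and 80.7 FPKM across DKO libraries. No DKO library reached the lowest WT library. Pgam1 was called lower in DKO, with a limma log2 fold change of -0.56 (SE 0.122, adjusted p = 0.0403). Eno1 (chromosome 4, 150236721 to 150248879, plus strand) forms phosphoenolpyruvate and held 94.6% of enolase FPKM in WT and 94.0% in DKO. It stood at 323, 400.2 and 361 FPKM across WT libraries, against 251, 266 and 230.3 FPKM across DKO libraries. The groups did not overlap, and Eno1 was lower in DKO, with a limma log2 fold change of -0.53 (SE 0.1197, adjusted p = 0.0446). Eno2, below the filter, was at 0.0805 to 0.648 FPKM for WT and 0.489 to 0.906 FPKM for DKO. Eno3, the muscle enolase, which is not among the 42 genes, held 4.64% to 6.68% of enolase FPKM in the 6 libraries.

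Pyruvate kinase, encoded here almost wholly by Pkm, yields the second ATP and pyruvate. Pkm stood at 309, 409 and 354 FPKM across WT libraries, against 283, 283 and 232 FPKM across DKO libraries. WT was higher in every library, and the result was a limma log2 fold change of -0.42 (SE 0.147, adjusted p = 0.139), which missed the threshold. Pklr, the liver and red cell isoform, held at most 0.0291% of pyruvate kinase FPKM. Summed over the 6 payoff genes, the WT libraries reached 1244, 1656 and 1382 FPKM and the DKO libraries 995.98, 1030.3 and 860.3 FPKM, a ratio of means of 1.48. The same sum over the 11 preparatory genes was 688 to 826 FPKM for WT and 651 to 745 FPKM for DKO, overlapping, with a ratio of 1.07.

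Lactate handling came next in the route. Ldha (chromosome 7, 46841475 to 46855627, plus strand) reduces pyruvate to lactate and was the most abundant of the 42 genes in WT. It stood at 438, 568 and 439 FPKM across WT libraries, against 299, 309 and 273 FPKM across DKO libraries. Every DKO library was far below the lowest WT library. Ldha was called lower in DKO, with a limma log2 fold change of -0.70 (SE 0.1402, adjusted p = 0.0324). Ldhb, the isoform that favours the reverse reaction, stood at 12.8, 13.9 and 15.3 FPKM across WT libraries, against 19.5, 19.4 and 14.9 FPKM across DKO libraries. DKO library 2 lay within the WT range, and the result was a limma log2 fold change of 0.33 (SE 0.128, adjusted p = 0.175). The Ldhb share of lactate dehydrogenase FPKM was 2.84%, 2.39% and 3.38% in the WT libraries and 6.13%, 5.91% and 5.17% in the DKO libraries, so the groups did not overlap.

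Slc16a1 encodes MCT1, a proton-coupled carrier of lactate and pyruvate (chromosome 3, 104638668 to 104658462, plus strand). It stood at 29.8, 33.95 and 31.1 FPKM across WT libraries, against 21.9, 21.6 and 19.01 FPKM across DKO libraries. Both groups were tight, and Slc16a1 was lower in DKO with the smallest p of the 40 members tested. Its limma log2 fold change was -0.58 (SE 0.0864, adjusted p = 0.0135). Slc16a3, which encodes MCT4, was below the filter, at 1.003 ± 0.176 FPKM for WT against 0.851 ± 0.06196 FPKM for DKO (SD, n = 3).

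**Figure D2:**
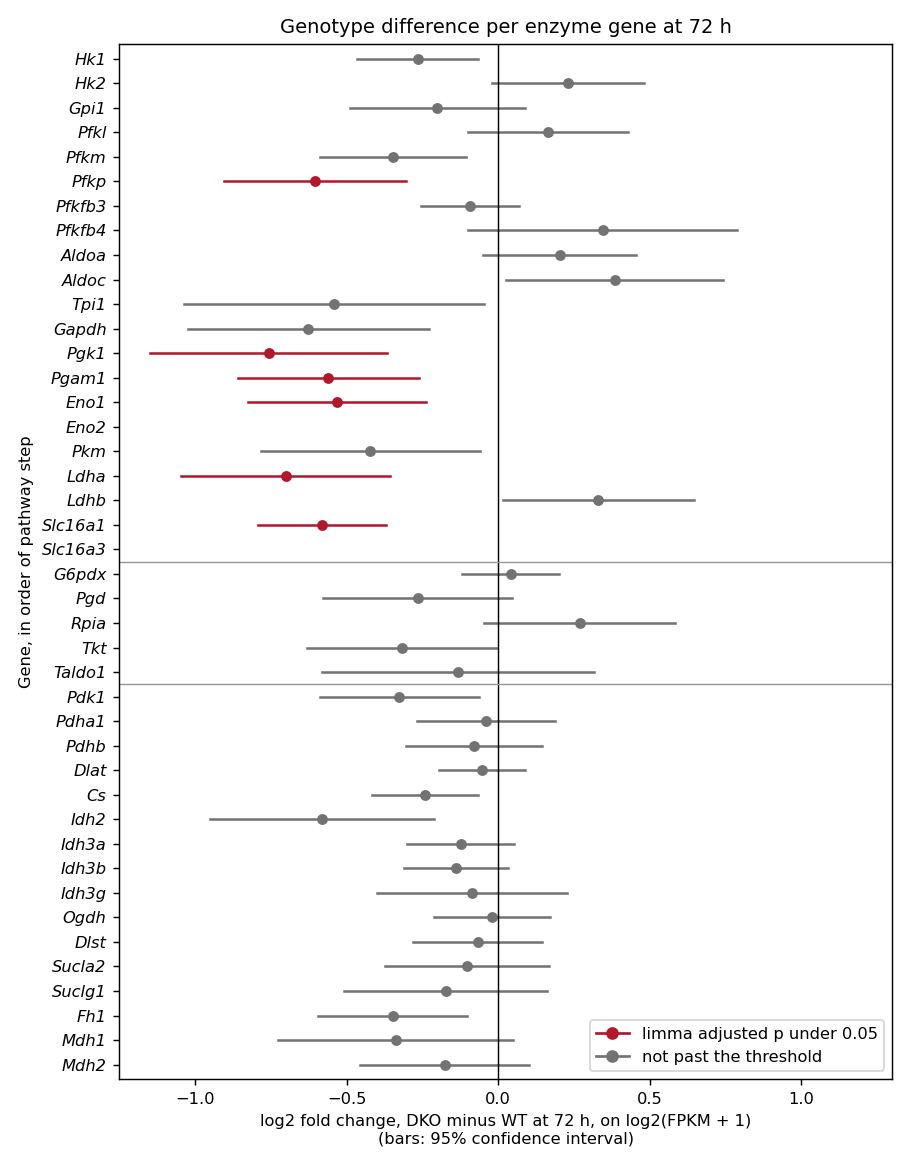
Log2 fold change of DKO over WT at 72 h on the log2(FPKM + 1) scale for each gene in pathway order, with 95% confidence intervals from limma and red for an adjusted p under 0.05. Red intervals are all below 0 and lie in glycolysis and lactate handling, and Eno2 and Slc16a3 have no value.

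The 6 calls rest on few libraries. With each library left out in turn, the log2 fold change of every one of the 6 stayed negative, but the number called dropped to 2, 3 and 2 without WT library 0, 1 and 2, and to 1, 0 and 1 without DKO library 0, 1 and 2. Slc16a1 was called except without DKO library 1 (limma adjusted p = 0.0575, range over the libraries left out 0.0344 to 0.0575). Pgk1 missed the threshold without WT library 2 or any 1 DKO library (limma adjusted p from 0.0865 to 0.115). Ldha missed it without WT library 0, WT library 2 or any 1 DKO library (0.060 to 0.112), and Pfkp without any library but WT library 2 (0.0555 to 0.1225). Pgam1 and Eno1 missed it whichever library was left out (0.0654 to 0.118 and 0.0573 to 0.144). Over all genes tested the number called also dropped, from 1144 to between 388 and 765.

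Some of these genes have near-identical copies elsewhere in the genome. Processed pseudogenes are known for Gapdh, Ldha, Pgam1, Tpi1 and Eno1, and the table holds an Eno1-like row, Eno1b, at 0.226 to 1.38 FPKM. How reads shared between such copies were divided is not stated in the labels, so the levels of these genes are uncertain to that degree.

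None of the 5 genes of the pentose phosphate pathway was called by limma, and 1 of the 5, Tkt, was lower at an unadjusted p under 0.05, beside the 13.6% of all genes. G6pdx, which opens the oxidative branch and makes NADPH, differed little between the groups, at 25.9 ± 0.411 FPKM for WT against 26.6 ± 1.41 FPKM for DKO (SD, n = 3). The 95% interval of its log2 difference ran from -0.12 to 0.20. Pgd, the second NADPH-making enzyme, stood at 62.4 ± 10.4 FPKM for WT against 51.3 ± 2.49 FPKM for DKO (SD, n = 3), with DKO lower in every library.

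In the non-oxidative branch, Tkt, transketolase, stood at 118, 156 and 123 FPKM across WT libraries, against 108, 111 and 97.8 FPKM across DKO libraries. All DKO values were lower, with a limma log2 fold change of -0.32 (SE 0.128, adjusted p = 0.188). Taldo1, transaldolase, overlapped between the groups at 167 ± 32.99 FPKM for WT against 152 ± 22.8 FPKM for DKO (SD, n = 3). Rpia, which makes ribose 5-phosphate, had a log2 difference of 0.27, with overlapping groups, and only Rpia and G6pdx of the 5 genes had a positive value. Summed over the 5 genes, WT libraries held 363 to 486 FPKM and DKO libraries 326 to 387 FPKM.

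None of the 16 genes of pyruvate dehydrogenase and the TCA cycle was called by limma, and 4 had an unadjusted p under 0.05, all lower in DKO, beside the 13.6% of all genes lower at that p. Pdk1, a kinase that switches pyruvate dehydrogenase off, stood at 65.5, 53.5 and 65.1 FPKM across WT libraries, against 45.9, 47.5 and 52.4 FPKM across DKO libraries. The DKO libraries were all lower, the highest of them only just, and the result was a limma log2 fold change of -0.33 (SE 0.107, adjusted p = 0.122). The subunits of the complex itself differed little. Pdha1 was at 54.5 ± 3.205 FPKM for WT against 53.02 ± 4.74 FPKM for DKO (SD, n = 3), Pdhb at 68.2 ± 5.49 FPKM for WT against 64.4 ± 4.03 FPKM for DKO (SD, n = 3) and Dlat at 12.4 ± 0.196 FPKM for WT against 11.9 ± 0.295 FPKM for DKO (SD, n = 3), with log2 differences between -0.08 and -0.04.

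Citrate synthase, Cs, which starts the cycle, stood at 83.2, 90.1 and 87.4 FPKM across WT libraries, against 74.9, 74.5 and 70.6 FPKM across DKO libraries. The groups were tight and apart, and the result was a limma log2 fold change of -0.24 (SE 0.0716, adjusted p = 0.0949). Idh2, the mitochondrial isocitrate dehydrogenase that makes NADPH, had the largest difference of the cycle. Its values were 39.1, 51.5 and 43.8 FPKM across WT libraries, against 32.6, 31.9 and 24.5 FPKM across DKO libraries. DKO was lower in every library, a limma log2 fold change of -0.58 (SE 0.151, adjusted p = 0.0664) was just outside the threshold, and the authors' deposited table gives a q of 0.000643. Idh1, the cytosolic counterpart, which is not among the 42 genes, held 7.49%, 8.20% and 7.61% of the summed Idh1 and Idh2 FPKM in the WT libraries and 18.1%, 17.3% and 16.5% in the DKO libraries, with no overlap.

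The NAD-dependent isocitrate dehydrogenase is built of 3 subunits, with Idh3a at 40.2 ± 2.42 FPKM for WT against 36.8 ± 1.03 FPKM for DKO (SD, n = 3), Idh3b at 89.4 ± 3.74 FPKM for WT against 81.1 ± 0.946 FPKM for DKO (SD, n = 3) and Idh3g at 109 ± 10.9 FPKM for WT against 103 ± 12.5 FPKM for DKO (SD, n = 3). Idh3a and Idh3b were lower in every DKO library and Idh3g overlapped. Ogdh and Dlst, subunits of oxoglutarate dehydrogenase, had the smallest differences of the cycle, -0.02 and -0.07, with overlapping groups. Sucla2 and Suclg1, of succinyl-CoA synthetase, overlapped as well, at -0.10 and -0.17.

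Fh1, fumarase, stood at 38.8, 46.1 and 38.2 FPKM across WT libraries, against 31.5, 34.3 and 29.99 FPKM across DKO libraries. All DKO libraries were lower, with a limma log2 fold change of -0.35 (SE 0.1004, adjusted p = 0.0882). Mdh1, the cytosolic malate dehydrogenase, was at 105 ± 22.1 FPKM for WT against 81.9 ± 5.78 FPKM for DKO (SD, n = 3), with DKO lower in every library. Mdh2, the mitochondrial enzyme and the most abundant gene of the cycle, was at 183 ± 15.3 FPKM for WT against 162 ± 15.4 FPKM for DKO (SD, n = 3), with overlap. Summed over the 12 genes of the cycle, WT libraries held 808, 937 and 877 FPKM and DKO libraries 785, 791 and 709 FPKM, a ratio of means of 1.15, below the 1.48 of the payoff genes. The difference between these ratios was not tested.

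**Figure D3:**
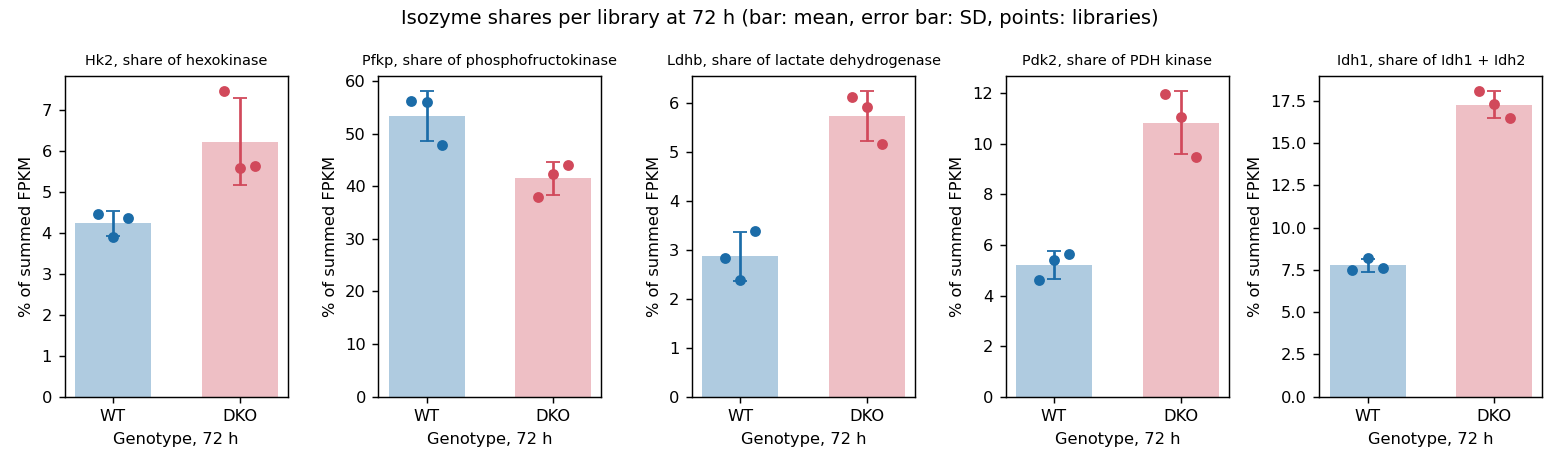
Percent of the summed FPKM of a family held by Hk2, Pfkp, Ldhb, Pdk2 and Idh1 in each library at 72 h, with bars for group means, error bars for SD and points for the 3 WT and 3 DKO libraries. The groups do not overlap in any panel: Pfkp held more of its family in WT and the other 4 genes more in DKO. These genes were picked for display, and the shares of others, among them Aldoa, Eno1, Pkm and Pdk1, overlapped between the groups.

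Beyond the 42 genes, 51 others of the same pathways were listed, of which 50 are in the table and 36 were tested. Limma called 3 of these 36 lower and 2 higher, beside 6.36% and 4.31% of all genes tested. The median log2 fold change of the 36 was -0.07. Me2, a mitochondrial malic enzyme, stood at 50.2, 56.5 and 50.96 FPKM across WT libraries, against 33.9, 35.7 and 30.9 FPKM across DKO libraries, with a limma log2 fold change of -0.63 (SE 0.08703, adjusted p = 0.0109). Its DKO libraries were all well below the WT libraries. The pyruvate dehydrogenase kinases differed in direction. Pdk2 stood at 4.004, 4.199 and 4.83 FPKM across WT libraries, against 7.86, 7.49 and 6.83 FPKM across DKO libraries. It was higher in every DKO library and was called, with a limma log2 fold change of 0.65 (SE 0.09398, adjusted p = 0.0123). Pdk3 stood at 17.6, 20.2 and 15.6 FPKM across WT libraries, against 11.9, 12.7 and 12.8 FPKM across DKO libraries. It was lower in every DKO library and was called, with a limma log2 fold change of -0.47 (SE 0.102, adjusted p = 0.0396). As a share of kinase FPKM, Pdk2 was 5.21% ± 0.545 in WT and 10.8% ± 1.25 in DKO (SD, n = 3), and Pdk1 was the main kinase in both, at 73.3% and 70.9%. Pgm1, named as a phosphoglucomutase, was slightly higher in DKO, with a limma log2 fold change of 0.30 (SE 0.061, adjusted p = 0.0324). Prps2, which turns ribose phosphate into PRPP for nucleotides, was slightly lower in DKO, with a limma log2 fold change of -0.27 (SE 0.05998, adjusted p = 0.0411). The number called was 2, 2 and 3 without WT library 0, 1 and 2, and 0, 1 and 3 without DKO library 0, 1 and 2.

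Beside these values, markers of cell division had larger log2 differences than any of the 42 genes. Limma called 10 of 10 such genes, among them Mki67 and Top2a, lower in DKO, with a median log2 fold change of -2.01. Their summed FPKM was 292 to 473 in WT libraries and 66.9 to 80.3 in DKO libraries, and the part of this difference in the enzyme results was not tested. Of 6 tested regulators of these pathways, none was called by limma and 1, Txnip, had an unadjusted p under 0.05. Txnip was higher in every DKO library, with a limma log2 fold change of 0.30 (SE 0.095, adjusted p = 0.115). Myc, which drives glycolytic genes in activated T cells, stood at 135, 129 and 146 FPKM across WT libraries, against 162, 152 and 150.2 FPKM across DKO libraries. The Myc groups were apart with DKO higher, at a limma log2 fold change of 0.18 (SE 0.0854, adjusted p = 0.257). Arnt was also higher in every DKO library, at 0.20 (SE 0.0841, limma adjusted p = 0.193). Hif1a, the oxygen-sensing activator of glycolysis, stood at 23.4, 23.4 and 20.6 FPKM across WT libraries, against 17.3, 20 and 21.2 FPKM across DKO libraries, with overlap.

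For the change with culture, the authors' deposited table compares 72 h with 0 h within each genotype. Its pairwise runs were scaled separately, and the comparisons share the 72 h libraries with the genotype comparison, so the values are given side by side and no relation between them is drawn. In WT, 21 of the 42 genes had a q under 0.05 and were higher after culture, beside 25.8% of all genes with a p below 1, and 1 was lower, beside 22.1%. By pathway, 13 of 21 glycolytic genes were higher, 4 of 5 pentose phosphate genes, and 4 of 16 of pyruvate dehydrogenase and the TCA cycle.

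The largest log2 fold changes in WT in the authors' deposited table were those of Tpi1 at 1.67, Hk2 at 1.52, Pgam1 at 1.25, Aldoc at 1.12 and Eno1 at 0.99. All 5 are glycolytic. At the other end were Ogdh at -0.30, the only gene with a q under 0.05, Dlst at -0.25, Pdha1 at -0.21, Rpia at -0.18 and Pdhb at -0.16. None of the 4 pyruvate dehydrogenase genes passed in WT.

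In DKO the authors' deposited table has 25 of the 42 genes higher after culture, beside 24.8% of all genes with a p below 1, and 3 lower, beside 20.4%. Glycolysis gave 16 of the 25, the pentose phosphate pathway 3, and pyruvate dehydrogenase and the TCA cycle 6. Tpi1 led at 1.77, followed by Hk2 at 1.73, Aldoc at 1.58, Eno2 at 1.11 and Tkt at 0.93. The lowest were Dlst at -0.39, Ogdh at -0.32 and Pfkfb3 at -0.29, which passed, and Pdhb at -0.22 and Pfkp at -0.13, which did not. In both genotypes 19 of the 42 genes were higher, beside 18.7% of all genes with a p below 1 in both comparisons. The authors also deposited lists of genes with a q under 0.05 and a change of at least 2-fold, and their 72 h genotype list holds no gene under 1 FPKM in the higher group. Eno2, at 1.11 in DKO culture with a q of 0.00852, is not on the DKO culture list. On these lists, WT culture had 4 of the 42 genes higher (beside 8.26% of genes) and 0 lower (4.27%), and DKO culture 3 higher (5.35%) and 0 lower (3.71%). No gene differed by 1 or more between the genotypes' log2 changes. The widest gap was that of Eno2, at 0.29 in WT and 1.11 in DKO, a gene below 1 FPKM in all 6 libraries at 72 h. Pdk1 was at 0.01 in WT and 0.76 in DKO, and Aldoa at 0.12 and 0.64. These gaps were not tested.

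**Figure D4:**
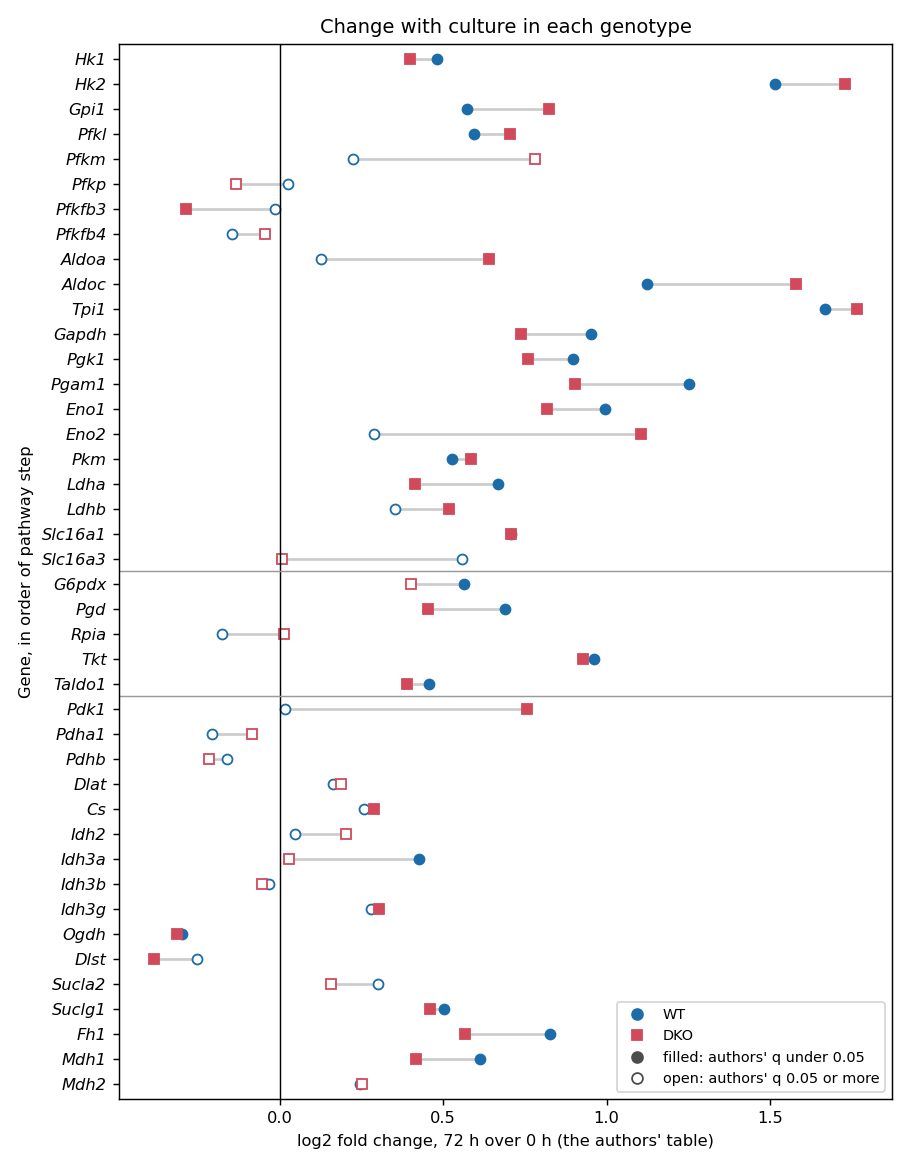
Log2 fold change from 0 h to 72 h from the authors' deposited table for each gene, with circles for WT and squares for DKO, filled where the authors' q was under 0.05. Most glycolytic genes lie right of 0 in both genotypes, and most pyruvate dehydrogenase and TCA genes lie nearer to 0.

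The authors' deposited table also compares DKO with WT at 0 h, before culture. There 16 of the 42 genes were lower at a q under 0.05, beside 16.9% of all genes with a p below 1, and 2 were higher, beside 14.7%. The lower genes included 12 of glycolysis, 1 of the pentose phosphate pathway and 3 of pyruvate dehydrogenase and the TCA cycle. Pdk1 had the largest difference at -1.09 and was the 1 gene on the authors' list of genes at least 2-fold lower (beside 2.3% of genes). The list of genes at least 2-fold higher held 0 of the 42 (2.78%). After Pdk1 came Pfkm at -0.98, Idh2 at -0.77, Tpi1 at -0.68, Pgk1 at -0.66 and Slc16a1 at -0.62. Pfkfb4 at 0.41 and Idh3a at 0.25 were the 2 higher ones.

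At 72 h the same table has 9 genes lower, beside 9.87% of all genes with a p below 1, and 0 higher, beside 6.46%. The 9 are Pfkp, Tpi1, Gapdh, Pgk1, Pgam1, Eno1, Ldha, Slc16a1 and Idh2, and 9 of 9 were also lower at 0 h, beside 53.8% of all genes lower at 72 h with a p below 1 at both times. On the authors' 2-fold lists for 72 h there were 0 of the 42 genes lower (beside 3.67%) and 0 higher (1.55%). Ldha was at -0.48 at 0 h and -0.71 at 72 h, Pgam1 at -0.24 and -0.57, and Slc16a1 at -0.62 and -0.60. Aldoa was at -0.33 at 0 h with a q of 0.00232 and at 0.20 at 72 h with a q of 0.437. Pdk1 was at -1.09 and -0.34. The difference between the 2 times was not tested for any gene.

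**Figure D5:**
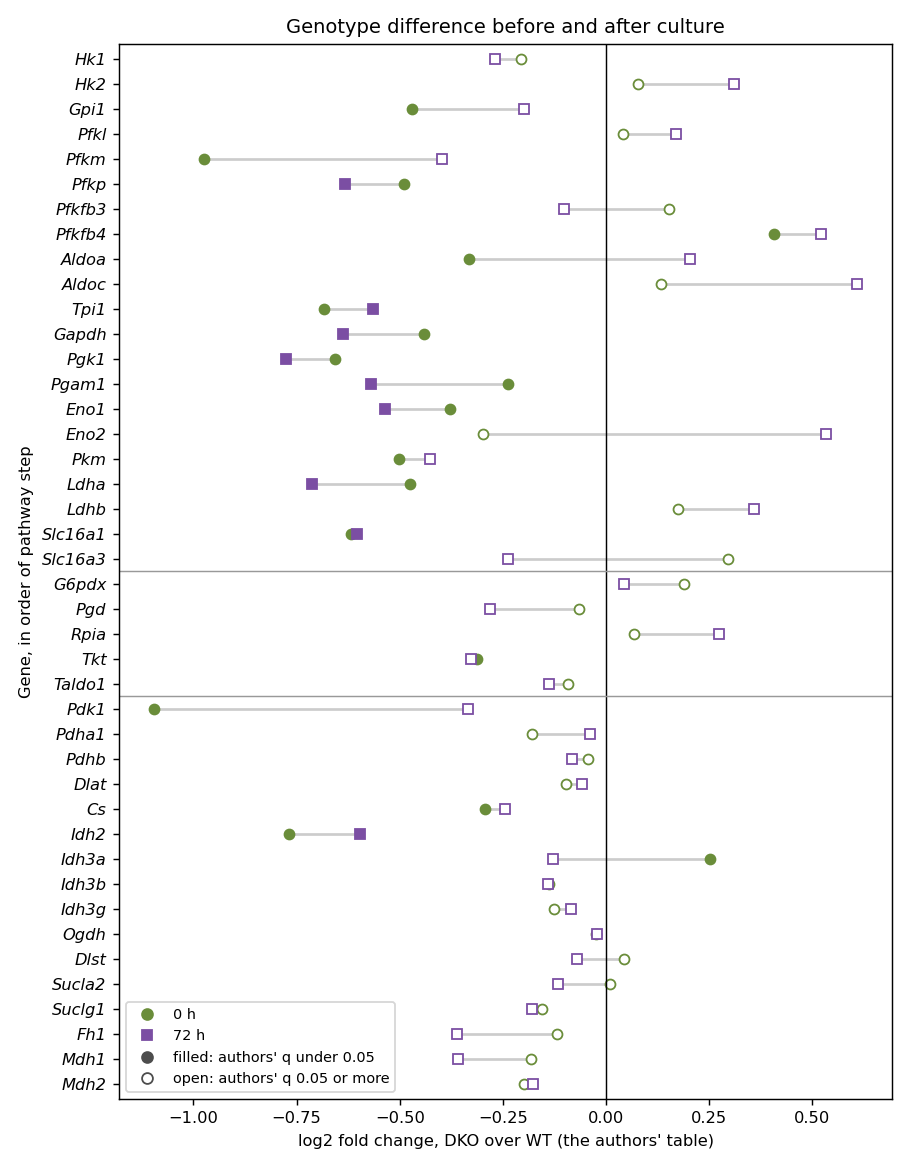
Log2 fold change of DKO over WT from the authors' deposited table, with circles for 0 h and squares for 72 h, filled where the authors' q was under 0.05. Pgk1, Gapdh, Ldha and Slc16a1 lie left of 0 at both times, Pdk1 lies far left at 0 h, and Aldoa is left of 0 at 0 h and right of 0 at 72 h.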

How the data were processed

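RNA of 3 WT and 3 DKO libraries at 72 h was sequenced on a HiSeq-2000, per the labels' protocols. The authors deposited FPKM values per library from Cuffdiff, as the columns of their table show, together with the log2 fold change, p-value and q-value of each pairwise comparison, 0 h included. Tools in the submitters' processing notes are TopHat2 2.1.0, Cuffdiff 2.2.1 and FastQC, and the builds mm10 and mm9 appear there with no role. For the annotation and any use of strand, the sources used here say nothing. The table's 6 per-library columns for 0 h match none of the samples and were left unused. Other deposited columns used are the authors' lists of called genes, whose 72 h list holds the genes with q under 0.05, at least a 2-fold change and a higher-group mean not under 1 FPKM.

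Genes reaching a mean of 1 FPKM (10723) were tested as log2(FPKM + 1), which understates changes of low genes, with limma 3.58.1 in R 4.3.3 (trend, two-sided, Benjamini-Hochberg adjustment at 0.05 over all tested genes). The test was checked on simulated data in which each gene varied independently. That check does not cover libraries that deviate together across many genes. Shares, sums and figures used Python 3.11.15 and matplotlib 3.10.9. Groups came from the sample titles. Column numbers 0 to 2 are not tied to the labels' replicates 1 to 3. Same-numbered libraries did not deviate together, which does not show that they were unpaired. The members, gene lists and tests were chosen with earlier results of these data known. All 42 members are named, with values per library for those past the threshold and the leading isozymes, other pathway genes where past the threshold, and the 5 largest and 5 smallest culture changes per genotype. Positions came from GENCODE M21 by symbol and promoter sequences from RefSeq, GRCm38.p6. The alternatives were other pseudocounts, filters, scalings and variance trends, a replicate block, libraries left out, and the authors' calls.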

Additional observations from a re-analysis of the deposited data

How the results depend on the processing

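The 6 glycolytic and lactate genes kept a negative log2 difference under all alternatives run, and no member was called higher under any. The number of members called lower (6) was 3 with no filter on low values, 0 on the authors' call list and 0 with both WT library 0 and DKO library 2 left out, and 0 to 3 with 1 library left out, and the cause was not tested beyond the smaller number of libraries in the last 2. Members called lower numbered 7 under quantile normalization and 7 when scaled without ribosomal protein and small RNA rows. Gapdh was called under both (limma adjusted p = 0.0203 and 0.0258), and Pfkp was not called under the second (0.0578). Other pathway genes called (5) numbered 3 when scaled without ribosomal protein and small RNA rows, 0 on the call list, 0 without that library pair and 0 to 3 with 1 library left out. Over all genes, the calls (1144, 682 lower and 462 higher) numbered 1886 (1140 and 746) by the authors' q, 603 (424 and 179) on their list, 28 (16 and 12) without the pair, and 388 to 765 (260 to 471 and 128 to 294) with 1 library left out. Values near 0 changed sign. When scaled without ribosomal protein and small RNA rows, which moved the median log2 difference of all genes to 0.09, Pdha1 was at 0.045, Pdhb at 0.0059, Dlat at 0.027, Ogdh at 0.064 and Dlst at 0.018. Pdha1 was at 0.0023 under quantile normalization. With 1 library left out, G6pdx ranged from -0.00021 to 0.069, Taldo1 from -0.256 to 0.018, Pdha1 from -0.106 to 0.021, Idh3g from -0.169 to 0.016 and Ogdh from -0.074 to 0.0097.

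With the column number as a replicate block, 0 members and 0 other pathway genes were called, and 356 of all genes (245 lower and 111 higher). Correlations of the deviations of same-numbered libraries were -0.17, 0.04 and -0.01. With 3 libraries per group, values this near 0 cannot show whether the numbers pair the libraries, and the labels do not say.

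Counts from the authors' table were also taken on their call lists and at q under 0.01, chosen after seeing the data. On the call lists, WT culture gave 4 members higher and 0 lower, DKO culture 3 and 0, and DKO against WT at 0 h gave 0 higher and 1 lower. At q under 0.01, members lower with culture numbered 0 in WT and 1 in DKO, and members higher in DKO at 0 h numbered 0. Absolute depth is unknown, so no counting limit can be given, and 3 libraries per group limit what can be called.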

Other observations

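Slc2a3 and Slc2a1, glucose transporters that feed these pathways and are not among the 42 genes, were looked at after their values were seen. Other glucose transporters are not given here. Slc2a3 (GLUT3) stood at 15.4, 12.8 and 15.3 FPKM across WT libraries, against 31.8, 31.7 and 33.8 FPKM across DKO libraries. It was higher in all 3 DKO libraries, with a limma log2 fold change of 1.11 (SE 0.09, adjusted p = 0.00324). Slc2a1 (GLUT1) stood at 21.4, 21.9 and 22.9 FPKM in WT and 29.5, 29.3 and 24.9 FPKM in DKO, and its log2 fold change of 0.32 (limma adjusted p = 0.0729) missed the threshold. Both transporters had a positive difference at 72 h, as did 8 of the 40 members tested, while 32 members had a negative one. Any relation between the transporters and the enzymes was not tested.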
